A study of Mus musculus with 8 samples.

Results

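The transmitter identity of tagged cells was read from 8 genes that encode vesicular transporters and synthetic enzymes: Slc17a6, Slc17a7 and Slc17a8 for glutamate, Slc32a1, Gad1 and Gad2 for GABA, and Slc18a3 and Chat for acetylcholine. They were chosen by name, and all 8 of 8 were found among the 18939 genes of the deposited count table, each with 1 row. RNA bound to tagged ribosomes was purified by TRAP (translating ribosome affinity purification, which pulls down a GFP-tagged ribosomal protein) from dissections aimed at the paraventricular nucleus of the thalamus (PVT). The 4 control libraries (replicates 1, 2, 5 and 6) came from mice given only 0.2% saccharin to drink, and the 4 morphine libraries (replicates 3, 4, 7 and 8) from mice given morphine, brought up to 0.5 mg/ml, in 0.2% saccharin for 11 days. Each group had 2 libraries labelled male and 2 labelled female, and by the study's methods each library pooled tissue of 2 mice of 1 sex. All mice, controls included, carried the OPRM1cre X EGFP-L10a genotype on a C57Bl/6J background and were 8 to 12 weeks old when experiments began.

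In this cross Cre follows Oprm1, the mu-opioid receptor (MOR) gene, and turns on a tagged ribosomal protein from the Rosa26 locus. Recombination is permanent, so a cell that expressed Cre earlier in life stays tagged. The dissection was gross, and no library of unpurified tissue was analysed here, so the levels below are levels in the purified RNA and not enrichment over the tissue.

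A neuron's fast transmitter is set by what it loads into synaptic vesicles. VGLUT2 (Slc17a6), VGLUT1 (Slc17a7) and VGLUT3 (Slc17a8) load glutamate, and neurons of the thalamus mostly use VGLUT2, pyramidal neurons of cortex and hippocampus VGLUT1. GABA is made from glutamate by the decarboxylases GAD67 (Gad1) and GAD65 (Gad2) and is loaded by VGAT (Slc32a1), which also carries glycine. Acetylcholine is made by choline acetyltransferase (Chat) and loaded by VAChT (Slc18a3), and in the forebrain it marks striatal interneurons, basal forebrain neurons and part of the medial habenula, which lies beside the PVT.

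Total counts per library were 37081348 to 43311793 in the control group and 31151103 to 47582947 in the morphine group. Oprm1, whose locus drives the tag, had 463 to 1307 counts in every library, with 16.8 to 32.3 CPM in the control and 14.0 to 18.4 CPM in the morphine group (log2 fold change -0.62, SE 0.19, edgeR adjusted P = 0.207). Genes listed for the midline thalamus need not be limited to it. Of these, Calb2 stood between 217 and 683 CPM (read counts scaled to a common library size after TMM normalization). Tcf7l2 stood between 686 and 1359 CPM, and Drd3, a dopamine receptor of this region, reached at most 0.718 CPM. Prkcd, a marker of relay thalamus beside the PVT, stood between 373 and 797 CPM. In control replicate 5, labelled female, the CPM of 4 Y-linked genes was 28.7% to 35.8% of the average over male-labelled libraries, against at most 2 counts in the other female-labelled libraries, so this library goes against its label. Nothing in the labels gives a batch.

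Per length of transcript and averaged over all 8 libraries, the GABA-synthesizing enzymes stood at the top of the 8 genes and the cholinergic genes and VGLUT3 at the bottom. The order of the upper genes differed between the groups. Gad1 had a level of 141 ± 32.0 CPM per kb (SD, n = 8) and ranked 360 among 18622 genes with a transcript length. Gad2 followed with 94.9 ± 23.3 CPM per kb (SD, n = 8), rank 660. Gad1 was above Gad2 in 8 of 8 libraries.

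Both main glutamate transporters came next in the mean over all libraries. Slc17a6 had 67.9 ± 12.5 CPM per kb (SD, n = 8; rank 1044) and Slc17a7 had 66.6 ± 35.3 CPM per kb (SD, n = 8; rank 1072). Slc17a6 was above Slc17a7 in 5 of 8 libraries, that is in 4 of 4 control libraries and in 1 of 4 morphine libraries, so the order of this pair did not hold across libraries. The group means of Slc17a6 were 68.4 CPM per kb in control and 67.4 in morphine, and those of Slc17a7 were 41.5 and 91.7. In the morphine group the mean of Slc17a7 was thus above that of Gad2 (81.0 CPM per kb), with Slc17a7 the higher in 2 of 4 morphine libraries and in 0 of 4 control libraries. Gad2 was above Slc17a6 in 6 of 8 libraries, in all 4 of the control group and in 2 of the morphine group.

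VGAT, which GABA neurons need for release, had a lower level than either decarboxylase. Slc32a1 had 23.5 ± 7.40 CPM per kb (SD, n = 8; rank 3409). Its level was 0.0947 to 0.301 times that of Gad1 and 0.149 to 0.436 times that of Gad2 per kb, and it lay below Slc17a7 in 8 of 8 libraries. Slc32a1 was in turn 4.26 to 27.6 times the level of Chat, the next in order.

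The last 3 genes were low. Chat had 1.93 ± 1.58 CPM per kb, Slc17a8 had 0.943 ± 0.238 and Slc18a3 had 0.631 ± 0.302 (SD, n = 8), and they ranked 10710, 11849 and 12397. Chat was above Slc17a8 in 6 of 8 libraries and Slc17a8 above Slc18a3 in 6 of 8, so neither of these neighbours kept its order in every library.

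**Figure D1:**
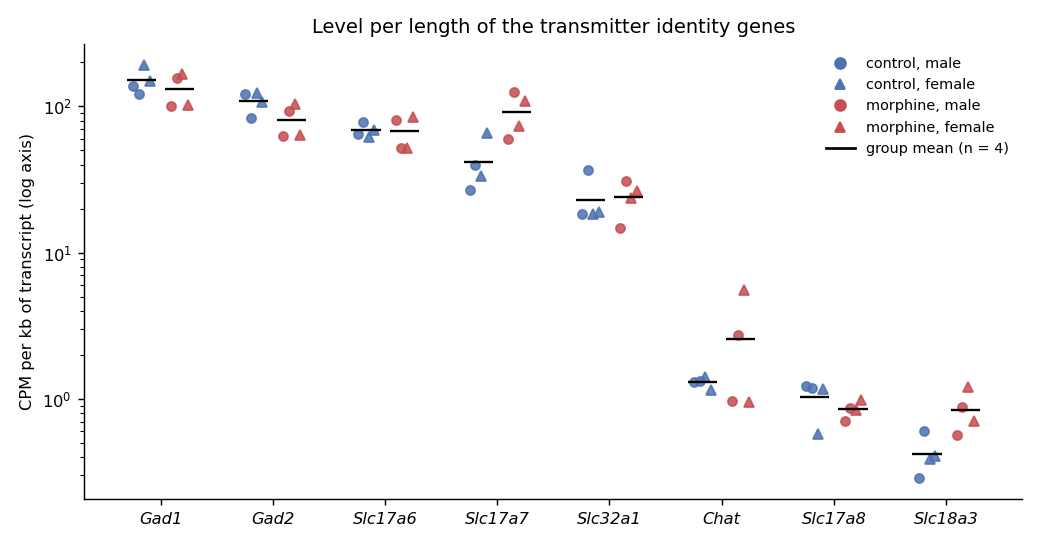
The level of each gene in CPM per kb of transcript, on a log axis, for the 4 control and 4 morphine libraries, with circles for libraries labelled male, triangles for female and a bar at each group mean. Gad1 has the highest mean in both groups, Slc17a7 has a higher mean than Gad2 in the morphine group, Chat, Slc17a8 and Slc18a3 lie lowest, and Slc17a7 has the widest gap between group means among the 5 highly expressed genes.

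None of the 8 genes passed the test between morphine and control. At an adjusted P value under 0.05 (edgeR quasi-likelihood test, Benjamini-Hochberg over 18939 genes), 0 of the 8 were called, against 0.195% of all genes in either direction and 0.164% higher in morphine. Before adjustment, 3 of the 8, Slc17a7, Slc18a3 and Gad2, had a P value under 0.05, as did 12.1% of all genes. DESeq2, the tool of the study's methods, called 1 of the 8, which was Slc17a7, and 2.63% of all genes. In 0 of the 8 did the groups not overlap in CPM, against 6.54% of all genes. The log2 fold changes ran from -0.42 for Gad2 to 1.15 for Slc17a7, with 4 of 8 above 0 and a median of 0.017, against 0.0088 over all genes.

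**Figure D2:**
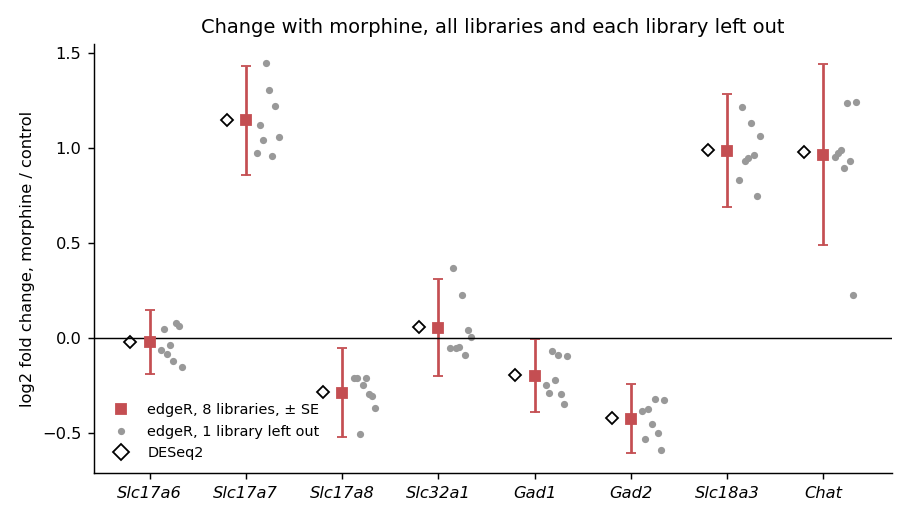
The log2 fold change of each gene, morphine over control, from edgeR with all 8 libraries (squares, bars are ± 1 SE), from edgeR with each library left out in turn (grey points) and from DESeq2 (diamonds). Slc17a7, Slc18a3 and Chat have values near 1, and the value of Chat is 0.23 without morphine replicate 7.

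Slc17a6, which encodes VGLUT2, lies on chromosome 7 of GRCm38.p6 from 51621830 to 51671126 on the plus strand. It stood at 267, 323, 256 and 286 CPM in control replicates 1, 2, 5 and 6 and at 334, 216, 215 and 350 CPM in morphine replicates 3, 4, 7 and 8. The morphine libraries fell on both sides of the control libraries, 2 above the highest and 2 below the lowest. The log2 fold change was -0.022 (SE 0.17, edgeR adjusted P = 0.979), with means of 283 ± 29.7 CPM in the control group and 279 ± 73.1 CPM in the morphine group (SD, n = 4).

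Slc17a7, which encodes VGLUT1, lies on the same chromosome from 45163921 to 45176139, also on the plus strand. It stood at 78.1, 115, 96.8 and 193 CPM in control replicates 1, 2, 5 and 6 and at 174, 365, 215 and 316 CPM in morphine replicates 3, 4, 7 and 8. Of the morphine libraries, 4 of 4 lay above the control mean and 3 of 4 above the highest control library, which was replicate 6. The means were 121 ± 50.5 and 267 ± 88.3 CPM (SD, n = 4), a ratio of 2.21. The log2 fold change was 1.15 (SE 0.29, edgeR adjusted P = 0.142), and DESeq2 gave an adjusted P value of 0.00505. Without control replicate 6 the log2 fold change was 1.45 and the gene was called (edgeR adjusted P = 0.0402), among 0.408% of all genes in that fit. In a bulk sample, more cells of a type and more RNA per cell cannot be told apart.

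The ratio of Slc17a7 to Slc17a6 does not depend on library size. Per kb, it was 0.415, 0.507, 0.537 and 0.957 in control replicates 1, 2, 5 and 6 and 0.741, 2.40, 1.41 and 1.28 in morphine replicates 3, 4, 7 and 8. VGLUT2 was thus the higher of the pair in every control library, and VGLUT1 in 3 of the 4 morphine libraries. The log2 ratio differed by 1.22 between the groups (two-sided exact permutation test, P = 0.0571, or 0.0857 after adjustment over 3 ratios, where 4 libraries against 4 can give no less than 0.0286). The difference was 1.54 between the libraries labelled male and 0.91 between those labelled female, with 2 libraries a group in each, and the latter includes control replicate 5, which goes against its label.

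Markers of other tissue were read beside Slc17a7, in lists chosen with earlier results of these data known. Over all genes, edgeR called 0.195% and DESeq2 2.63%. In 8 genes of telencephalic pyramidal neurons, the summed level was 181 to 332 CPM in the control libraries and 240 to 439 CPM in the morphine libraries. The log2 fold change of 7 of these 8 was above 0, with a median of 1.29, and 0 were called by edgeR and 3 by DESeq2, of which Neurod6 and Neurod2 were higher and Cux2 was lower in morphine. Neurod6, a transcription factor of pyramidal neurons, had 1.51, 3.17, 2.08 and 13.7 CPM in control replicates 1, 2, 5 and 6 and 30.6, 53.0, 48.9 and 70.7 CPM in morphine replicates 3, 4, 7 and 8. Cux2, a factor of upper cortical layers, had 125 to 134 CPM in the control libraries and 90.8 to 115 CPM in the morphine libraries, and it made up most of the summed level in control replicates 1, 2 and 5.

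In 7 genes of choroid plexus, which lies in the ventricle above the PVT, the sum was 10.0 to 68.5 CPM in the control libraries and 104 to 359 CPM in the morphine libraries. All 7 had a log2 fold change above 0, with a median of 2.50. Of the 7, 0 were called by edgeR and 6 by DESeq2, against 0.195% and 2.63% of all genes. As the list was chosen with earlier results known, its common direction is not an independent result. Ttr, which encodes the carrier transthyretin, had 0.949 to 44.5 CPM in the control libraries and 69.9 to 302 CPM in the morphine libraries, and Kcnj13 was at 0 counts in control replicate 1. Control replicate 6, the control library with the most Slc17a7, was also the control library with the highest sum of either list. Of 8 midline thalamus genes 7 had a log2 fold change below 0, with a median of -0.22, and 0 were called by edgeR and 1 by DESeq2 (C1ql2, which was higher in morphine). Gbx2, a transcription factor of thalamic neurons, had 60.6 to 78.3 CPM in the control and 27.0 to 62.5 CPM in the morphine libraries. All 5 relay thalamus genes had a log2 fold change below 0 (median -0.19) and all 6 oligodendrocyte genes one above 0 (median 0.56), with 0 called by edgeR and 0 by DESeq2 in both lists. The oligodendrocyte sum was 116 to 1176 CPM in the control and 537 to 1437 CPM in the morphine libraries, with control replicate 5 above 3 of the 4 morphine libraries. Of 5 astrocyte genes 4 were above 0 (median 0.35) and of 5 microglia genes 4 were below 0 (median -0.032), with 0 called by either tool and sums of 8.49 to 36.4 CPM and 0.765 to 4.86 CPM over all libraries. The part of these tissues and cells in the Slc17a7 values and in its ratio to Slc17a6 was not tested.

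**Figure D3:**
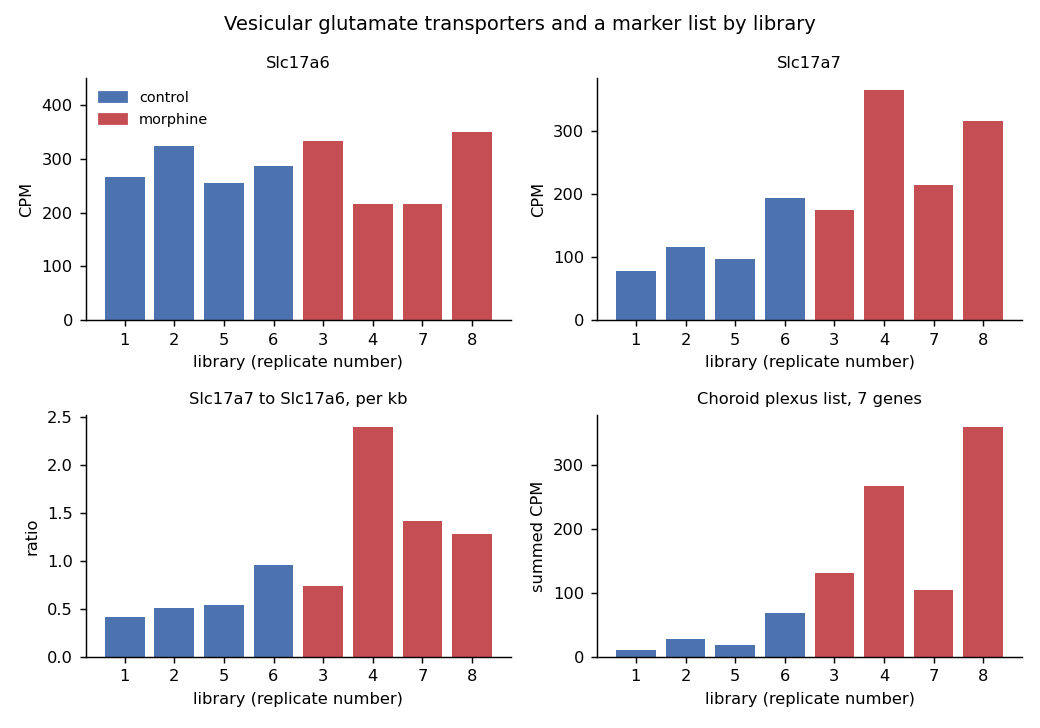
Slc17a6 and Slc17a7 in CPM, their ratio per kb and the summed CPM of 7 choroid plexus genes, with 1 bar per library labelled by replicate number. Slc17a6 has no common direction in the morphine libraries, while the ratio is above 1 in morphine replicates 4, 7 and 8 and the choroid plexus sum is at least 104 CPM in all 4 morphine libraries and at most 68.5 CPM in the controls.

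Slc17a8, which encodes VGLUT3, lies on chromosome 10 from 89574020 to 89621249 on the minus strand. It had 107 to 236 counts per library, which are 5.44, 5.31, 2.56 and 5.19 CPM in control replicates 1, 2, 5 and 6 and 3.15, 3.84, 3.77 and 4.38 CPM in morphine replicates 3, 4, 7 and 8. The morphine libraries lay below 3 of the control libraries and above control replicate 5. VGLUT3 had a log2 fold change of -0.29 (SE 0.24, edgeR adjusted P = 0.671), and -0.50 without control replicate 5 (edgeR adjusted P = 0.295).

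The decarboxylases had values that were lower on average in the morphine group, in neither case past the test. Gad1, which encodes GAD67, the cytosolic enzyme, lies on chromosome 2 from 70561303 to 70602014 on the plus strand. It stood at 466, 409, 647 and 503 CPM in control replicates 1, 2, 5 and 6 and at 338, 527, 558 and 344 CPM in morphine replicates 3, 4, 7 and 8. Replicates 3 and 8 lay below every control library, and replicates 4 and 7 within their range. Gad1 had a log2 fold change of -0.20 (SE 0.19, edgeR adjusted P = 0.685), which was -0.07 without control replicate 5 and -0.35 without morphine replicate 7 (edgeR adjusted P = 0.928 and 0.519).

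Gad2, which encodes GAD65, the enzyme found at synaptic vesicles, lies on the same chromosome from 22621015 to 22693877 on the plus strand. It stood at 693, 482, 705 and 617 CPM in control replicates 1, 2, 5 and 6 and at 362, 535, 599 and 366 CPM in morphine replicates 3, 4, 7 and 8. All 4 morphine libraries lay below the control mean of 624 ± 103 CPM, and 2 of them below every control library. The morphine mean was 466 ± 120 CPM (SD, n = 4). Gad2 had a log2 fold change of -0.42 (SE 0.18, edgeR adjusted P = 0.381).

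The ratio of Gad1 to Gad2, per kb, was 1.15, 1.45, 1.57 and 1.39 in control replicates 1, 2, 5 and 6 and 1.60, 1.69, 1.59 and 1.61 in morphine replicates 3, 4, 7 and 8. The groups did not overlap, although control replicate 5 and morphine replicate 7 were close. The log2 ratio differed by 0.23 (SD 0.19 and 0.038, n = 4 each, two-sided exact permutation test, P = 0.0286, which 4 against 4 libraries cannot go below), and this did not pass after adjustment over the 3 ratios (0.0857). Without control replicate 1 the difference was 0.14.

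**Figure D4:**
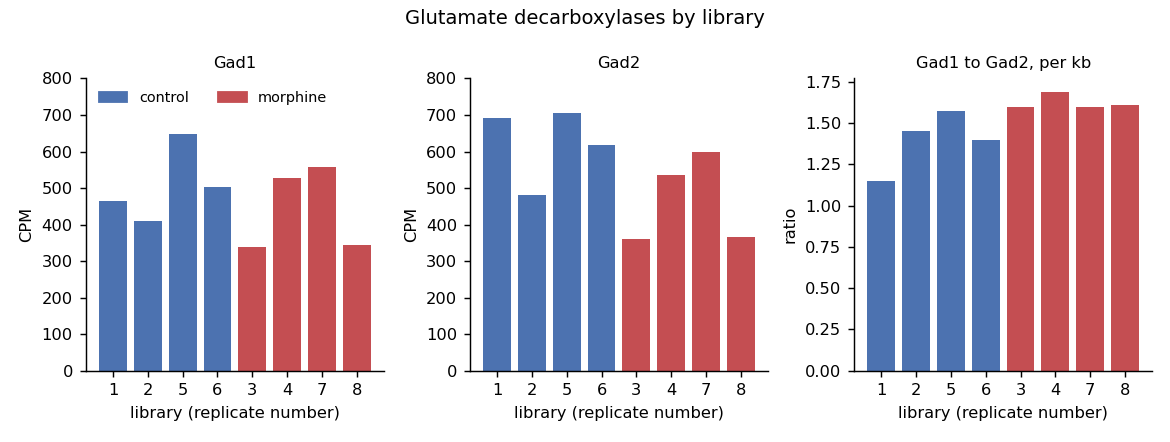
Gad1 and Gad2 in CPM and their ratio per kb, with 1 bar per library labelled by replicate number. Morphine replicates 3 and 8 have the lowest values of both genes, and the ratio is 1.59 to 1.69 in the morphine libraries against 1.15 to 1.57 in the controls.

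Slc32a1, which encodes VGAT, lies on chromosome 2 from 158607260 to 158615747 on the plus strand. It stood at 51.4, 102, 51.1 and 52.9 CPM in control replicates 1, 2, 5 and 6 and at 41.5, 86.2, 66.5 and 73.8 CPM in morphine replicates 3, 4, 7 and 8. Control replicate 2 was the highest of all libraries, and the other 3 controls lay between morphine replicate 3 and the rest of the morphine group. VGAT had a log2 fold change of 0.056 (SE 0.26, edgeR adjusted P = 0.955) and became 0.37 without control replicate 2 (edgeR adjusted P = 0.351) and -0.054 without control replicate 5 (edgeR adjusted P = 0.964). An exon of Gm14205, on the opposite strand, overlaps this gene, and the sources used here do not say that counting used the strand, so its value is uncertain to that extent. The log2 ratio of Slc32a1 to Slc17a6 differed by 0.13 between the groups (exact two-sided permutation test, P = 0.743, adjusted 0.743), and its ratio ran from 0.273 to 0.468 in the control libraries and from 0.184 to 0.590 in the morphine libraries.

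Marker lists of GABA neurons gave different counts above and below 0. In 11 genes of forebrain GABA neurons the summed level was 224 to 291 CPM in the control libraries and 224 to 337 CPM in the morphine libraries, with 5 log2 fold changes above 0 and 6 below and 0 called. In 5 factors of thalamic and midbrain GABA neurons it was 31.5 to 83.9 CPM and 21.9 to 79.9 CPM, with 3 above 0 and 2 below and 0 called. Among 5 genes of striatal projection neurons, which are GABAergic, the sum was 128 to 333 CPM in the controls, and 106, 869, 701 and 60.0 CPM in morphine replicates 3, 4, 7 and 8. All 5 of these had a log2 fold change above 0, with a median of 0.91, and 0 were called. Morphine replicates 4 and 7, the morphine libraries with the higher Gad1 and Gad2, were those with the higher striatal sum and the higher forebrain GABA sum (328 and 337 CPM). The controls did not follow this order, since control replicate 2 had the highest striatal sum of the controls with their lowest Gad1 and Gad2, and control replicate 5 had their highest Gad1 and Gad2 with a striatal sum of 247 CPM. The part of these cells in the Gad1 and Gad2 values was not tested.

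Both cholinergic genes share a locus. Chat lies on chromosome 14 from 32408203 to 32465909 on the minus strand, and Slc18a3, a gene of 1 exon from 32462437 to 32464850 on the same strand, sits inside its intron 1. The exons of the counted transcripts do not overlap, but unspliced Chat RNA covers Slc18a3, so Slc18a3 counts could in part belong to either.

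Chat stood at 3.74, 3.80, 4.02 and 3.31 CPM in control replicates 1, 2, 5 and 6 and at 2.78, 7.78, 15.9 and 2.73 CPM in morphine replicates 3, 4, 7 and 8. The control libraries were close together, and the morphine libraries were split, with 2 above and 2 below all controls. Chat had a log2 fold change of 0.97 (SE 0.48, edgeR adjusted P = 0.457), and it was 0.23 without morphine replicate 7 (edgeR adjusted P = 0.807) and 0.49 with limma-voom (adjusted P = 0.734).

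For Slc18a3 the counts were 27, 65, 39 and 36 in the control group (replicates 1, 2, 5 and 6) and 49, 70, 90 and 83 in the morphine group (replicates 3, 4, 7 and 8). These are 0.692, 1.46, 0.932 and 0.977 CPM against 1.38, 2.12, 2.92 and 1.71 CPM, so 3 of 4 morphine libraries lay above every control library. At such counts the counting error is large. The log2 fold change was 0.99 (SE 0.30, edgeR adjusted P = 0.215; DESeq2 adjusted P = 0.0643). Per kb, Slc18a3 was 0.222 to 0.458 times Chat in the control libraries and 0.218 to 0.741 times Chat in the morphine libraries.

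Slc5a7, which encodes the high-affinity choline transporter and completes the cholinergic set, had 4.08, 5.00, 3.30 and 4.26 CPM in control replicates 1, 2, 5 and 6 and 5.87, 7.24, 13.6 and 4.83 CPM in morphine replicates 3, 4, 7 and 8. This was a log2 fold change of 0.92 (SE 0.29, edgeR adjusted P = 0.235). Morphine replicate 7 was the highest library for Chat, Slc18a3 and Slc5a7.

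The markers of likely cholinergic neighbours differed in which libraries were high. The striatal sum was highest in morphine replicates 4 and 7, the same libraries as Chat. In 5 factors of forebrain cholinergic neurons the sum was 13.8 to 32.3 CPM in the controls and 8.40, 17.8, 41.3 and 2.08 CPM in morphine replicates 3, 4, 7 and 8. Of these, Lhx8, needed for forebrain cholinergic neurons, had 14.6 CPM in control replicate 1, 15.3 CPM in morphine replicate 7 and 0 counts in morphine replicate 8. Among the 5 factors, 1 log2 fold change was above 0 (Ngfr, 1.12) and 4 were below, with a median of -0.36 and 0 called. The 7 genes of medial habenula summed to 146 to 244 CPM in the control and 138 to 192 CPM in the morphine libraries, with 3 log2 fold changes above 0, 4 below and 0 called. Nwd2 alone, at 77.5 to 162 CPM, made up most of this sum in every library. Chrnb3, a nicotinic receptor subunit of the habenula, had a log2 fold change of 0.62 (edgeR adjusted P = 0.631). The part of these cells in the Chat and Slc18a3 values was not tested.

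**Figure D5:**
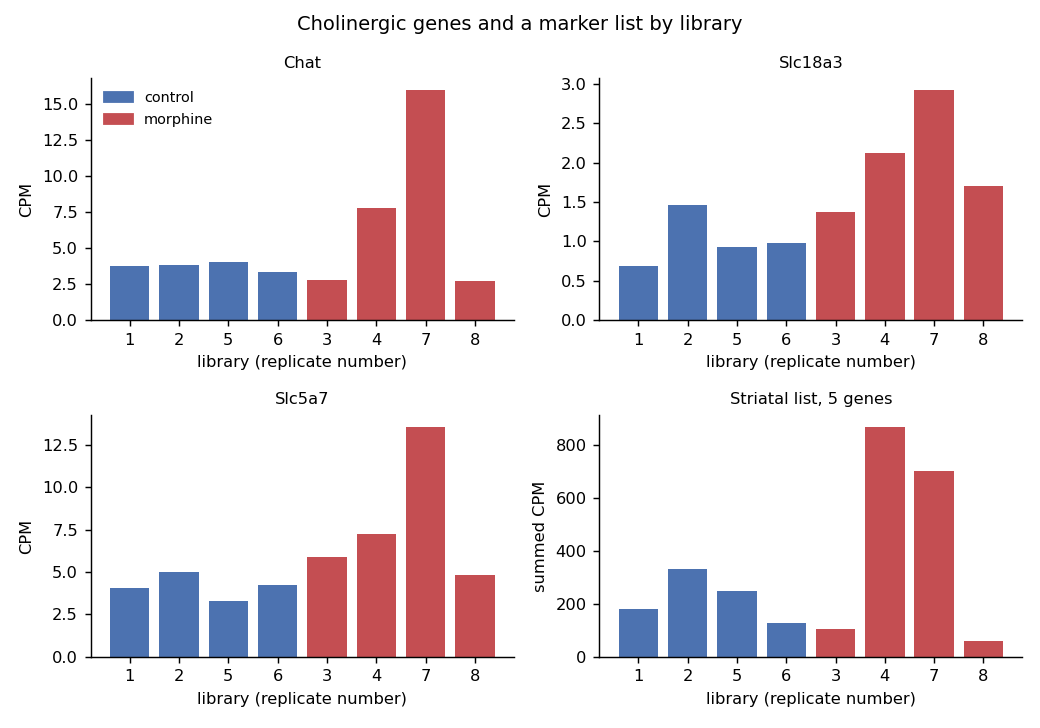
Chat, Slc18a3 and Slc5a7 in CPM and the summed CPM of 5 striatal genes, with 1 bar per library labelled by replicate number. Chat and the striatal sum are highest in morphine replicates 4 and 7, and morphine replicates 3 and 8 have the lowest values of both.

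Of 30 further genes, mostly of transmitter supply, uptake and breakdown, 0 were called between morphine and control by edgeR and 0 by DESeq2. The shares of all genes were 0.195% and 2.63%. The 30 include the nicotinic receptor subunits Chrna3 and Chrnb4. Before adjustment, 7 of the 30 had an edgeR P value under 0.05, against 12.1% of all genes, and their median log2 fold change was 0.072, against 0.0088 over all genes. Among 14 genes of glutamate supply and uptake, 9 had a log2 fold change above 0 and 5 below, with a median of 0.030. The highest levels per kb were those of Got1, a transaminase that makes glutamate (234 CPM per kb), and Slc38a1, a glutamine transporter (114 CPM per kb), with log2 fold changes of -0.066 and 0.071. Slc1a1, the neuronal glutamate transporter EAAC1, stood at 64.3 ± 16.1 CPM in the control and 94.0 ± 14.7 CPM in the morphine group (SD, n = 4), which gave a fitted log2 value of 0.55 (edgeR adjusted P = 0.226). Slc38a3, a glutamine transporter mainly of astrocytes, had the largest value, 1.24 (edgeR adjusted P = 0.356), at 0.410 to 3.84 CPM.

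Among 8 genes of GABA and glycine uptake and breakdown, 4 log2 fold changes were above 0 and 4 below, with a median of -0.092. The highest levels per kb were those of Abat, GABA transaminase (109 CPM per kb), and Aldh5a1, which follows it in GABA breakdown (24.5 CPM per kb). Abat had a log2 fold change of -0.33 (edgeR adjusted P = 0.427) and Aldh5a1 one of -0.35 (edgeR adjusted P = 0.317). The level of Abat per kb lay between those of Gad1 and Gad2.

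The acetylcholine list held 8 genes of uptake, breakdown, anchoring and, for Chrna3 and Chrnb4, reception. All 8 log2 fold changes were above 0, with a median of 0.41, and 0 were called. Ache, the esterase that ends the signal, had the highest level per kb (29.6 CPM per kb), with 62.2 ± 27.1 CPM in the control and 67.3 ± 21.4 CPM in the morphine group (SD, n = 4). Slc44a1, a choline transporter, had a log2 fold change of 0.61 (edgeR adjusted P = 0.346).

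Libraries labelled female and male were compared with treatment in the model. Of the 8 genes 0 were called by edgeR and 0 by DESeq2, while 0.00528% of all genes were called by edgeR (1 gene, and 5 genes without control replicate 5) and 0.137% by DESeq2. Before adjustment 0 of the 8, and 3.1% of all genes, had an edgeR P value under 0.05. The log2 differences, female minus male, ran from -0.21 for Slc32a1 to 0.39 for Chat. For the interaction of sex with morphine, 0 of the 8 were called by edgeR and 0 by DESeq2, against 0% and 0.0211% of all genes, and 0 of the 8, against 1.72% of all genes, had an edgeR P value under 0.05 before adjustment. Without control replicate 5, 0 of the 8 were called in either comparison. The interaction values ran from -0.61 for Slc17a7 to 0.85 for Chat, with an edgeR P value of at least 0.147 before adjustment, on 2 libraries per sex and treatment.

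As a description, each gene was compared over the 8 libraries with the 12988 genes that had a mean of at least 1 CPM, by Pearson's r of log2 CPM. The highest of so many coefficients are high by selection, and all genes share the same libraries, so no P value is given. Slc17a6 was closest to Fzd1, Nxph1 and Pcdh18 (r = 0.964, 0.963 and 0.958). Slc17a7 was closest to Fhl2, Cdkn1c and C1qtnf5 (r = 0.989, 0.985 and 0.982), and C1qtnf5 had 0.282 to 2.28 CPM in the control and 1.94 to 6.70 CPM in the morphine libraries. Slc32a1 was closest to Slc9a5, Pkd1 and Map3k10 (r = 0.988, 0.979 and 0.960). Gad1 was closest to Zbtb37, Ap2b1 and Aqr (r = 0.977, 0.967 and 0.967), and Gad2 to Chd8, Fam115a and Fuk (r = 0.993, 0.987 and 0.977). Among the genes of low counts, Slc17a8 was closest to Trpm4, Ndst1 and Odz1 (r = 0.946, 0.932 and 0.932), Slc18a3 to Lpl, Tyk2 and Csf2ra (r = 0.960, 0.957 and 0.942), and Chat to Cbr3, Mcm5 and Wdr17 (r = 0.953, 0.939 and 0.932).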

How the data were processed

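The authors deposited 1 table of raw read counts per RefSeq transcript and library, with 24488 rows for 18939 genes and 0 columns left without a sample. The counter is not given in the sources used here. Genome mm10 is named in the labels, and the study's own analysis used Salmon, tximport and DESeq2. Each gene was represented by its row with the highest total, and groups and replicate numbers were taken from the sample titles. Counts were normalized by TMM and tested with edgeR 4.0.16 (R 4.3.3, glmQLFit and glmQLFTest), with sex left out, on every gene that had a count in any library. An adjusted P value under 0.05 counts as a call. All 8 genes passed filterByExpr. Levels per kb divide CPM by the length of the matching GENCODE M21 transcript, found for 18622 genes. Coordinates are RefSeq's on GRCm38.p6. Ratios add 0.5 counts and were tested by exact permutation over 70 arrangements (scipy 1.17.1). Alternatives were DESeq2 1.42.0, limma-voom (limma 3.58.1), RLE and upper-quartile factors, filterByExpr, sex in the model, the sum over rows and each library left out in turn. Scripts were tested on simulated counts.

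The genes, the lists and the rule for named genes were chosen with earlier results of these data known. The rule names all 8 genes and, from each list, called genes and those with at least 1 CPM that rank in the first 2 by level per kb or by size of change. Of the marker lists, only genes beside a result are printed, and Drd3, Oprm1 and the Y-linked genes were named as checks, outside the rule. Slc5a7 falls under the rule, while Chrna3 and Chrnb4 are named only to describe their list. By likeness the rule names 3 genes for each of the 8. Replicates are pools of separate mice per the study's methods. PCR copies are not marked, so counting error is understated. Figures were drawn with matplotlib 3.10.9.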

Additional observations from a re-analysis of the deposited data

Results flagged for a closer look

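In 22 groups of 4 libraries (the 8 genes in CPM and the 3 ratios, in each treatment), outlying libraries were sought. A library was marked where its gap to the nearest other, divided by the range of the 4 values, exceeded Dixon's 95% limit. Chance gives this in about 1 of 20 groups, and 4 were marked. Slc17a8 was at 2.56 CPM in control replicate 5, against 5.19 to 5.44 CPM in the other controls. Slc32a1 was at 102 CPM in control replicate 2, against 51.1 to 52.9 CPM in the other controls. The log2 ratio of Slc32a1 to Slc17a6 was -1.10 in that same library, against -1.87 to -1.76 in the others. The log2 ratio of Gad1 to Gad2 was 0.75 in morphine replicate 4, against 0.67 to 0.69 in the other morphine libraries.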

How the results depend on the processing

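No paired analysis was possible because the treatment groups share no replicate numbers. The number of genes called between morphine and control, 37 of 18939, became 14 with filterByExpr, 22 with the sum over rows, 23 with limma-voom, 110 with sex in the model and 498 with DESeq2, and lay between 0 and 77 with 1 library left out (0 in the edgeR fits that omit morphine replicate 4 or 8, with an unadjusted P value under 0.05 for 1696 genes and 1664 genes). Between sexes the number was 1, with 0 by filterByExpr, 26 by DESeq2 and 0 to 5 with 1 library left out. For the interaction it was 0 by edgeR, with 325 genes at an unadjusted P value under 0.05, 4 by DESeq2 and 0 to 5 with 1 library left out. Slc17a7 was called by DESeq2 and without control replicate 6, and its log2 fold change lay between 0.96 and 1.45 with 1 library left out. With 1 library left out, the log2 fold change of Slc17a6 ran from -0.15 to 0.082 and that of Slc32a1 from -0.089 to 0.37, so both changed sign, as did the log2 ratio of Slc32a1 to Slc17a6 (-0.12 to 0.44). The log2 ratio of Slc17a7 to Slc17a6 ran from 0.94 to 1.51 and that of Gad1 to Gad2 from 0.14 to 0.29, where 3 libraries against 4 can give no exact P value under 0.0571. Slc17a8, Gad1, Gad2, Slc18a3 and Chat kept their sign and stayed uncalled under all alternatives. The cause was not tested. Slc18a3 had 27 to 90 counts per library, which limits its precision.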
